A study of Mus musculus with 18 samples.

Results

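mmu-miR-142-5p, mmu-miR-142-3p, mmu-miR-223-3p, mmu-miR-150-5p and mmu-miR-342-3p are microRNAs of white blood cells, here written without the species prefix, and their levels were followed from UVR-exposed skin to papilloma and carcinoma in the Hairless mouse. They were chosen by name, with earlier results of these data known, and are 5 of the 1251 entries of the mouse microRNA table. Of the 5, 4 were among the 293 microRNAs that could be tested, whereas miR-142-3p was detected in too few libraries. miR-150-5p and miR-342-3p were lower in papillomas and in carcinomas than in nonlesional skin. miR-142-5p took another course and was higher in carcinomas than in either of the other sample types. miR-223-3p passed the test in none of the 3 comparisons of limma, a linear model fitted across all tested microRNAs.

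The samples came from 6 female SKH-1E Hairless littermates, numbered mouse 2, 3, 7, 8, 9 and 10, a strain without the Hairless gene that readily forms skin tumours under ultraviolet radiation (UVR). All mice received chronic low-dose UVR from solar simulators, starting in young adulthood, so that there was no unexposed group. CHR is nonlesional skin that had been exposed to the same UVR, PAP is a papilloma, a benign outgrowth of the epidermis, and cuSCC is an invasive cutaneous squamous cell carcinoma. Each mouse gave 1 sample of each type, which makes 18 small RNA libraries and n = 6 per type. These were pieces of whole tissue, in which a smaller share of leukocytes and less of a microRNA per leukocyte cannot be told apart. The paper estimated PAP and cuSCC to be mostly tumour cells and described fibrosis and chronic inflammation in CHR.

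A microRNA guides a silencing complex to messenger RNAs that pair with its seed, a short stretch near its 5′ end, and lowers the output of those messages. Some microRNAs are made almost entirely by blood-forming cells, so that in a solid tissue they are often read as traces of the leukocytes within it. miR-142 is made throughout the haematopoietic lineages, miR-223 is most abundant in neutrophils and monocytes, and miR-150 accumulates in mature B, T and natural killer cells, where it represses the transcription factor Myb. miR-342 lies within the gene Evl and is abundant in lymphocytes, although its host gene is also used outside the blood.

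The mature sequences are shown because each of these arms acts through a seed of its own. Capitals mark the seed, bases 2 to 8 from the 5′ end, and the sequences and positions are those of RefSeq on GRCm38.p6.
miR-142-5p: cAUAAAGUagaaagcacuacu
miR-142-3p: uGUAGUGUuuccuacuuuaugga
miR-223-3p: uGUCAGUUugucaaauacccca
miR-342-3p: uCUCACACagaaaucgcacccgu
These 4 of the 5 members were matched, and miR-150-5p is given by name only. None of the 4 seeds occurs at this place in any other of the 1679 mature microRNA names of that RefSeq set. The set has no match for miR-150-5p and is thus not complete, so a shared seed outside it was not looked for. The miR-142 arms lie at chr11:87756867-87756887 and chr11:87756903-87756925 on the plus strand, within a hairpin that RefSeq names miR-142a, in an intron of the long noncoding RNA Mir142hg and opposite Mir142b on the minus strand. miR-223-3p lies at chrX:96242884-96242905 on the plus strand, in an exon of the noncoding gene F630028O10Rik. miR-342-3p lies at chr12:108658680-108658702 on the plus strand, in an intron of Evl. The Mir150 hairpin was placed at chr7:45121757-45121821 on the plus strand by the GENCODE annotation of the same genome.

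Levels are given as log2 values of ppm, a share of the usable reads, quantile normalized between the libraries, so that a level mainly gives the place of a microRNA within its library. The lowest value of the table is 3.32 on the log2 scale, or 10 ppm, and a microRNA at this value is called undetected. Between 163 and 365 entries were detected per library, fewest in PAP (163 to 281), and the lowest detected value reached 6.72 in the PAP of mouse 7 and 6.83 in the PAP of mouse 10. The cuSCC of mouse 10 stood apart from its type, with a mean correlation of -0.12 to the other cuSCC libraries over the tested microRNAs, each centred on its mean, and was closest to the PAP of the same mouse (r = 0.633). Where leaving out the PAP of mice 7 and 10 or the cuSCC of mouse 10 changed a call on the level of a member or moved its difference by over 1.5 times, the value without them is given too. Read totals per library are unknown, so counting error could not be given.

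miR-142-5p was detected in all 18 libraries. Its log2 level in CHR ran from 6.98 in mouse 2 to 9.70 in mouse 10, with a median of 8.78 and a mean of 8.59 ± 1.0 (SD, n = 6). In PAP it lay between 6.72 and 8.49 (median 7.57, mean 7.58 ± 0.60). In cuSCC it lay between 9.52 and 10.74 (median 10.21, mean 10.12 ± 0.51). PAP and CHR overlapped, and every cuSCC sample was above every PAP sample. Among all entries of a library, miR-142-5p stood at place 87 to 159 from the top in CHR, at 114 to 165 in PAP, and at 70 to 90 in cuSCC.

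**Figure D1:**
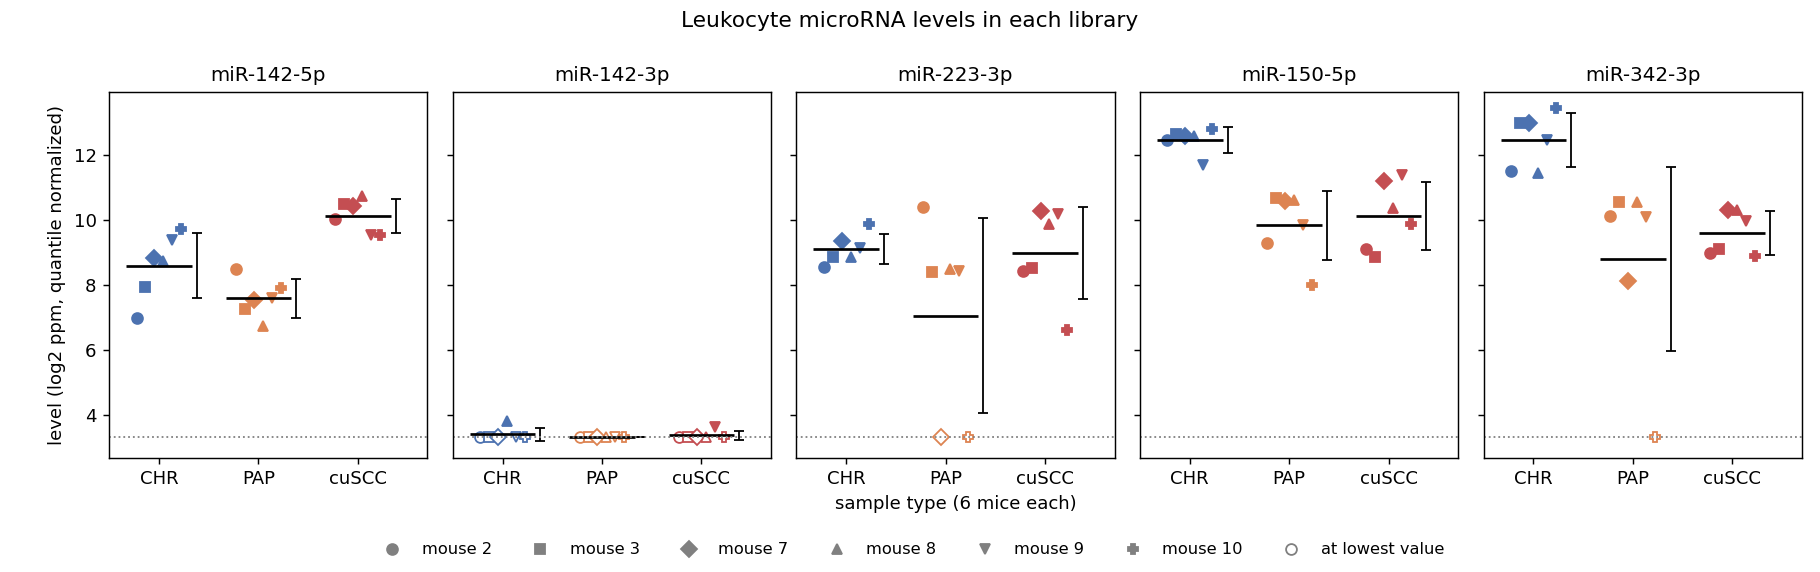
Level of each of the 5 microRNAs (log2 ppm, vertical axis) in each library of CHR, PAP and cuSCC, where each symbol is a mouse, black lines are means, bars are SD (n = 6) and open symbols lie at the lowest value, drawn as a dotted line at 3.32. miR-142-5p is highest in cuSCC, miR-150-5p and miR-342-3p are highest in CHR, and miR-142-3p leaves the lowest value in 2 libraries.

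The rise of miR-142-5p from PAP to cuSCC was 2.53 on the log2 scale (SE 0.34, 95% interval 1.79 to 3.27, limma adjusted p = 0.0018), or 5.79-fold. It had the smallest p of the 293 microRNAs in that comparison, in which 34 (11.6%) passed the test, 27 of them upwards (9.22%), and 4 (1.37%) had every cuSCC sample above every PAP sample. All 6 mice had more in their cuSCC than in their PAP, by 1.53 to 4.02. Without the cuSCC of mouse 10 the difference was 2.65 (limma adjusted p = 0.000593), and without the PAP of mice 7 and 10 it was 2.60 (limma adjusted p = 0.00706). A per-microRNA exact permutation test made no call among the 293 in this comparison, although 75 had an unadjusted p under 0.05. It gave miR-142-5p an adjusted p of 0.0945, the smallest adjusted p of the exact permutation test in this comparison. With 6 samples against 6, its unadjusted p cannot fall under 0.00216 (exact permutation test).

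miR-142-5p was also higher in cuSCC than in CHR, by 1.53 (SE 0.44, 95% interval 0.59 to 2.46, limma adjusted p = 0.0132), or 2.88-fold. In that comparison 124 of the 293 (42.3%) passed the test, 59 of them upwards (20.1%), so that a rise was not rare. Of the 6 cuSCC samples, 4 lay above every CHR sample, and 5 of 6 mice had more in their cuSCC. The difference was 1.32 without mouse 3 (limma adjusted p = 0.0677) and 1.64 without the cuSCC of mouse 10 (limma adjusted p = 0.00942). Between CHR and PAP the difference was -1.01 (SE 0.46, 95% interval -1.99 to -0.02), which did not pass the test over all microRNAs (limma adjusted p = 0.113), although 5 of 6 mice had less in their PAP. Without mouse 2, the mouse with the lowest level in CHR and the highest in PAP, it was -1.51 and did pass (limma adjusted p = 0.0136).

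miR-142-3p, the other arm of the same hairpin, was near the limit of the table throughout. It was detected in the CHR of mouse 8 at 3.82 and in the cuSCC of mouse 9 at 3.63, and lay at the lowest value in the other 16 libraries. It was detected in none of the 6 PAP samples. Whether it differed between sample types was therefore not detectable here.

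miR-223-3p, the myeloid member, was detected in all CHR and cuSCC samples and in 4 of 6 PAP samples. In CHR it was narrowly spread, from 8.56 to 9.88 (median 9.0, mean 9.10 ± 0.47). In PAP it was 10.38 in mouse 2, between 8.40 and 8.49 in mice 3, 8 and 9, and at the lowest value in mice 7 and 10 (mean 7.05 ± 2.99). In cuSCC it ran from 6.62 in mouse 10 to 10.26 in mouse 7 (median 9.20, mean 8.98 ± 1.41). The 3 sample types overlapped, and the spread of PAP and cuSCC was wider than that of CHR.

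No comparison of miR-223-3p passed the test. The PAP level differed from CHR by -2.05 (95% interval -4.46 to 0.36, limma adjusted p = 0.19). Without the PAP of mice 7 and 10, whose libraries held no detected value under 6.72 and 6.83, the difference was -0.18 (limma adjusted p = 0.793). The cuSCC level differed from CHR by -0.12 (95% interval -1.29 to 1.05, limma adjusted p = 0.875), and by 0.35 without the cuSCC of mouse 10 (95% interval -0.51 to 1.22). The cuSCC level differed from PAP by 1.93 (95% interval -0.72 to 4.57, limma adjusted p = 0.308), and by 0.06 without the PAP of mice 7 and 10. These intervals are wide, and a change of the size seen in miR-142-5p from CHR to cuSCC lay outside the interval of miR-223-3p in the same comparison.

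miR-150-5p, the lymphocyte member, was among the more abundant entries in CHR, at place 37 to 55 from the top. Its log2 level there lay between 12.44 and 12.79 in 5 mice and was 11.67 in mouse 9 (median 12.58, mean 12.45 ± 0.40). In PAP it ran from 7.99 in mouse 10 to 10.68 in mouse 3 (median 10.20, mean 9.83 ± 1.05). In cuSCC it ran from 8.84 in mouse 3 to 11.38 in mouse 9 (median 10.11, mean 10.12 ± 1.05). All PAP samples and all cuSCC samples were below the lowest CHR sample, whereas PAP and cuSCC overlapped.

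miR-150-5p fell by 2.62 from CHR to PAP (SE 0.44, 95% interval -3.59 to -1.66, limma adjusted p = 0.000641), a level 6.17-fold lower. Over all tested microRNAs, 95 of 293 (32.4%) passed in this comparison, 54 downwards (18.4%), and 28 (9.56%) had every PAP sample below every CHR sample. From CHR to cuSCC it fell by 2.33 (SE 0.44, 95% interval -3.27 to -1.40, limma adjusted p = 0.000927), a level 5.04-fold lower. There 65 of the 293 (22.2%) passed downwards, and 31 (10.6%) had every cuSCC sample below every CHR sample. Both falls were seen in 6 of 6 mice and passed whichever mouse was left out. PAP and cuSCC were compared with the same 6 CHR samples, so the 2 falls share their control. Between PAP and cuSCC the difference was 0.29 (95% interval -0.95 to 1.53, limma adjusted p = 0.781), which leaves room for differences of either sign, and 0.02 without the PAP of mice 7 and 10.

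miR-342-3p, the other lymphocyte member, lay between 11.42 and 13.43 in CHR (median 12.70, mean 12.45 ± 0.83). In PAP it lay between 10.09 and 10.54 in mice 2, 3, 8 and 9, was 8.13 in mouse 7 and was at the lowest value in mouse 10 (mean 8.79 ± 2.82). In cuSCC it lay between 8.89 and 10.31 (median 9.53, mean 9.59 ± 0.67). As with miR-150-5p, all PAP and all cuSCC samples were below the lowest CHR sample. Its place from the top was 29 to 59 in CHR and 77 to 103 in cuSCC.

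From CHR to cuSCC miR-342-3p fell by 2.86 (SE 0.42, 95% interval -3.76 to -1.96, limma adjusted p = 0.000152), a level 7.26-fold lower, in 6 of 6 mice. In PAP it fell against CHR by 3.66 (SE 1.08, 95% interval -6.01 to -1.32, limma adjusted p = 0.0248), also in 6 of 6 mice. The size of the PAP difference rests in part on the undetected sample. It was -3.08 with undetected values at the lowest detected value of each library (limma adjusted p = 0.00165), and -2.13 without the PAP of mice 7 and 10 (limma adjusted p = 0.00267). It no longer passed without mouse 7 (-3.43, limma adjusted p = 0.0712) or with every microRNA detected in at least 1 library in the test (limma adjusted p = 0.0606). Between PAP and cuSCC the difference was 0.80 (95% interval -1.53 to 3.13, limma adjusted p = 0.653), and -0.73 without the PAP of mice 7 and 10 (95% interval -1.57 to 0.11).

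**Figure D2:**
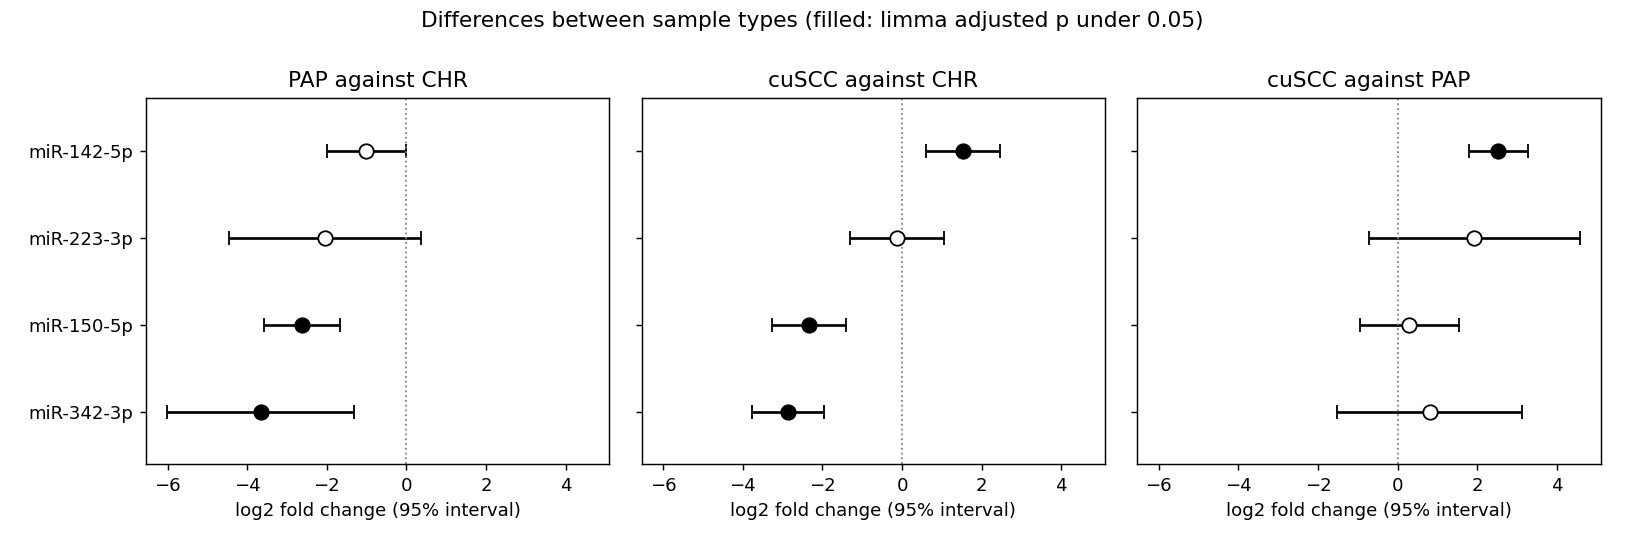
Difference in log2 level (horizontal axis, points) with its 95% interval (bars) for the 4 tested members in each of the 3 comparisons, 6 libraries per sample type, where filled points have a limma adjusted p under 0.05. miR-150-5p and miR-342-3p lie left of 0 against CHR in both tumour types, and miR-142-5p lies right of 0 in both comparisons of cuSCC.

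The members thus did not move as one group. Of the 4 tested members, 2 fell and 0 rose from CHR to PAP, where 18.4% of all 293 microRNAs fell and 14% rose. Against CHR, 2 fell and 1 rose in cuSCC, where 22.2% of all fell and 20.1% rose. Between PAP and cuSCC 1 rose and 0 fell, where 9.22% of all rose and 2.39% fell. The median log2 difference of the members was -2.34 from CHR to PAP, against -0.23 over all 293, and -1.23 from CHR to cuSCC, against 0.11. From PAP to cuSCC it was 1.36 against 0.21, but this rests on the PAP of mice 7 and 10. Without these 2 libraries it was 0.04, against 0.07 over all microRNAs, and from CHR to PAP it was -1.60 against -0.07. Taken out of the log2, the summed level of the 5 members was highest in CHR, at 8922 to 19880. It was lower in PAP (494 to 3612) and cuSCC (2233 to 6174), with no overlap between CHR and either. In CHR the sum was mostly miR-150-5p and miR-342-3p, each at a mean log2 level of 12.45. It thus followed the falls of miR-150-5p and miR-342-3p and did not show the rise of miR-142-5p in cuSCC.

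**Figure D3:**
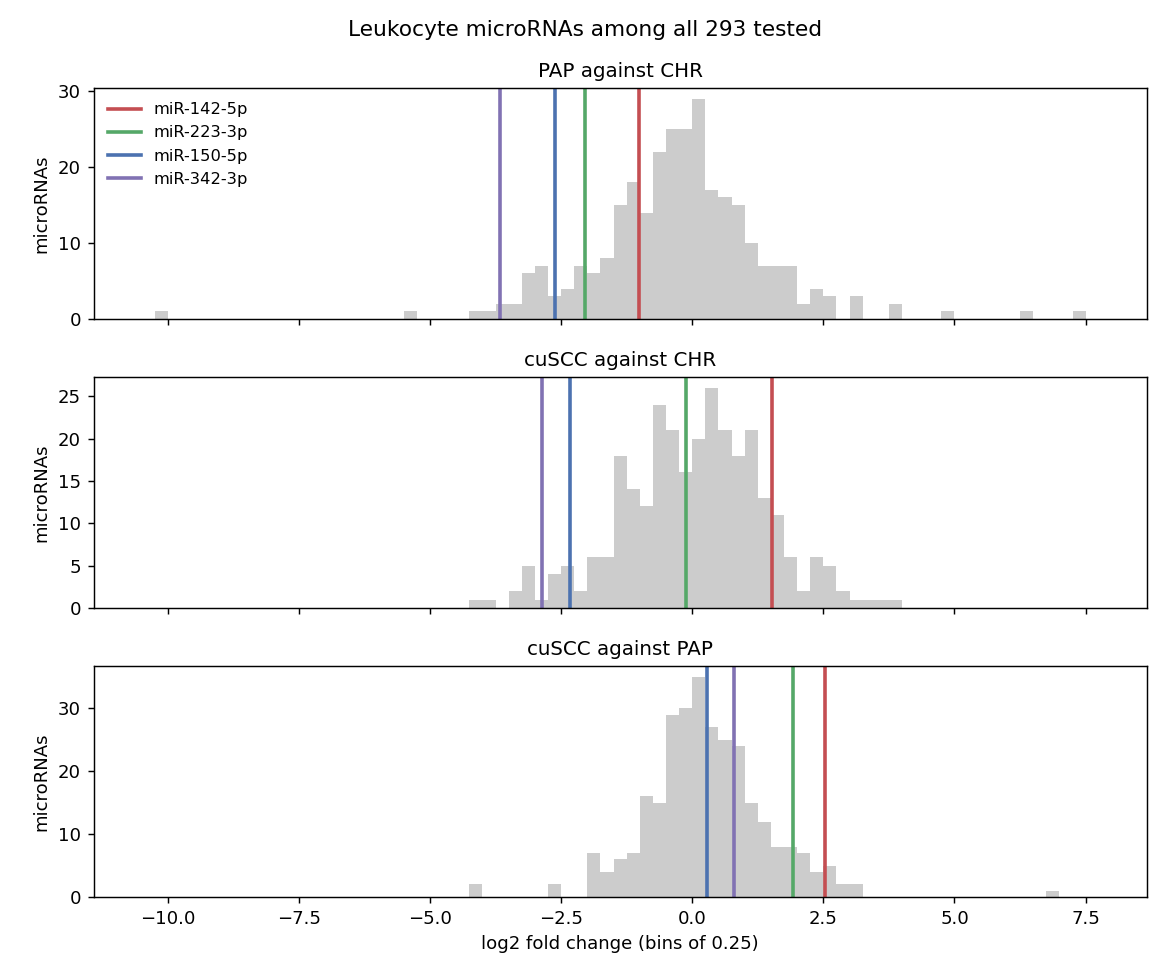
Number of microRNAs (vertical axis) by log2 difference (horizontal axis, bins of 0.25) for all 293 tested in each comparison, with vertical lines at the 4 tested members. miR-342-3p and miR-150-5p stand in the lower tail in both comparisons with CHR, and miR-142-5p stands in the upper tail from PAP to cuSCC.

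How the lineage members moved against miR-142-5p was read within each library, by subtracting the log2 level of miR-142-5p from every other microRNA. Different microRNAs enter a sequencing library with different efficiency, so the difference itself has no fixed meaning and only its shift between sample types was compared. In CHR, miR-150-5p exceeded miR-142-5p by 3.86 ± 1.13 (2.29 to 5.46), in PAP by 2.24 ± 1.51 (0.09 to 3.88), and in cuSCC by 0.00 ± 1.25 (-1.63 to 1.85). miR-342-3p exceeded it by 3.86 ± 0.89 in CHR and by 1.20 ± 3.06 in PAP, and lay below it in cuSCC, at -0.53 ± 0.65. The mean in PAP without mice 7 and 10 was 2.58 ± 1.38 for miR-150-5p and 2.80 ± 0.96 for miR-342-3p (n = 4). For both microRNAs the CHR samples lay above every cuSCC sample. How many of all microRNAs did so after the subtraction was not counted, so this separation has no background. In level, before the subtraction, 31 of 293 (10.6%) had every cuSCC sample below every CHR sample.

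Relative to miR-142-5p, miR-150-5p was 3.86 lower in cuSCC than in CHR (a log2 difference of -3.86, 95% interval -5.20 to -2.52, limma adjusted p = 3.94e-05). miR-342-3p differed by -4.39 (95% interval -5.57 to -3.20, limma adjusted p = 1.4e-06) and miR-223-3p by -1.65 (95% interval -2.92 to -0.38, limma adjusted p = 0.0283). The subtraction shifts every log2 difference by the same amount, so these values join the differences in level to the rise of miR-142-5p. All 292 microRNAs also carry the spread of the same miR-142-5p values. The fit pools spread over microRNAs as if they were independent. Intervals and limma adjusted p values relative to miR-142-5p, here and below, may therefore be too small, and counts of calls too high. Since miR-142-5p itself rose, 142 of the 292 microRNAs tested this way (48.6%) passed, 137 downwards (46.9%). That share is the background for the 3 members. The call for miR-223-3p was lost with mouse as a block (limma adjusted p = 0.0549) and without mouse 2, 3, 8 or 10, and without only the cuSCC of mouse 10 it was -1.29 (limma adjusted p = 0.0739).

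From CHR to PAP, relative to miR-142-5p, none of the 3 passed in limma, of 73 of 292 (25%) that did. miR-150-5p differed by -1.62 (limma adjusted p = 0.117), miR-342-3p by -2.66 (limma adjusted p = 0.0729) and miR-223-3p by -1.04 (limma adjusted p = 0.463). The first of these had an unadjusted p of 0.0389 and the second of 0.0204. These calls depend on the setting. With mouse as a block, miR-342-3p passed (limma adjusted p = 0.00446), as it did without mouse 8 (-3.41, limma adjusted p = 0.0411). With undetected values at the lowest detected value of each library, miR-150-5p (limma adjusted p = 0.0369) and miR-342-3p (-2.07, limma adjusted p = 0.00917) passed, as did 152 of the 292. Without the PAP of mice 7 and 10, miR-342-3p was -1.06 (limma adjusted p = 0.301) and miR-223-3p 0.89 (limma adjusted p = 0.334), and 48 passed.

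From PAP to cuSCC, relative to miR-142-5p, the shift of miR-150-5p was -2.24 (limma adjusted p = 0.0132), in a comparison in which 223 of 292 (76.4%) passed, so it was not out of the ordinary. It was lost without mouse 3 or 8, up to a limma adjusted p of 0.0735. miR-342-3p shifted by -1.73 (limma adjusted p = 0.154) and miR-223-3p by -0.60 (limma adjusted p = 0.628). Both passed, at -3.33 (limma adjusted p = 0.000511) and -2.54 (limma adjusted p = 0.00302), without the PAP of mice 7 and 10. They did so too, at -2.32 (limma adjusted p = 0.00289) and -1.76 (limma adjusted p = 0.0143), with undetected values at the lowest detected value of each library, and miR-342-3p also without mouse 10 (-2.87, limma adjusted p = 0.000948). In the first of these settings 243 of the 292 passed and in the second 278, so that passing was the rule.

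**Figure D4:**
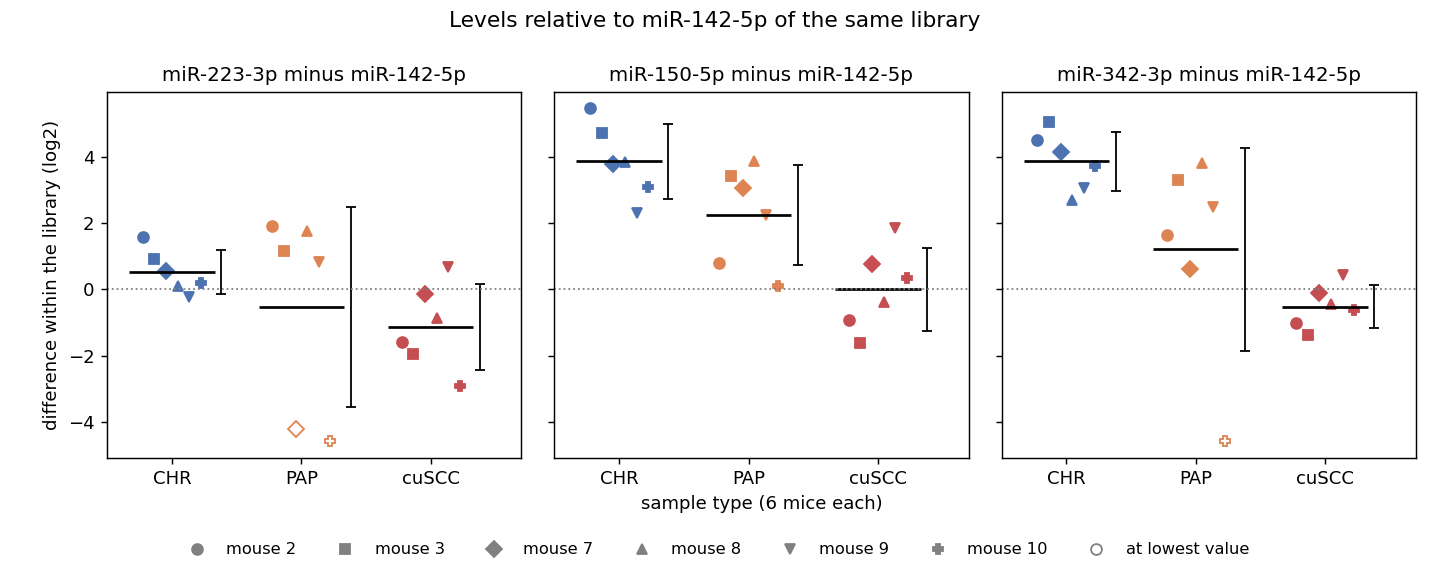
Log2 level of miR-223-3p, miR-150-5p and miR-342-3p minus that of miR-142-5p in the same library (vertical axis) for CHR, PAP and cuSCC, where symbols are mice, black lines are means, bars are SD (n = 6) and open symbols mark an undetected microRNA. For miR-150-5p and miR-342-3p the mean is highest in CHR and lowest in cuSCC, and PAP is widely spread, with the undetected values far below.

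The opposite arms of the members were hardly seen. miR-223-5p and miR-342-5p lay at the lowest value in all 18 libraries, and miR-150-3p was detected in 1, a CHR sample, at 4.10. Of 13 other immune-cell microRNAs, 8 were tested. In PAP, 5 of these fell and 0 rose against CHR, with a median difference of -1.32, where 18.4% of all tested microRNAs fell and 14% rose. Of the 8, 4 fell without the PAP of mice 7 and 10, against 13% of all. miR-146a-5p, which restrains NF-kB signalling, fell by 1.67 (limma adjusted p = 0.0146), and miR-181a-5p, which tunes T cell receptor sensitivity, fell by 2.01 (limma adjusted p = 0.0189). miR-511-5p, from an intron of the macrophage mannose receptor gene, fell by 2.29 (limma adjusted p = 0.000352). It was detected in 1 of 6 PAP samples and was low in CHR too, at 4.88 to 6.37. The lowest detected values in the PAP of mice 7 and 10, 6.72 and 6.83, lay above that whole range. The size of this fall thus depends on the lowest value of the table. The other 2 that fell were miR-181b-5p and miR-146b-5p, by 1.37 (limma adjusted p = 0.0304) and 0.93 (limma adjusted p = 0.0461).

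In cuSCC, 1 of the 8 fell and 0 rose against CHR, where 22.2% of all fell. It was miR-511-5p, which fell by 1.81 (limma adjusted p = 0.00501) and was detected in 5 of 6 cuSCC samples, with a mean level of 4.04. From PAP to cuSCC none of the 8 passed in limma, and 1, miR-146a-5p, had an unadjusted p under 0.05, with a difference of 1.58 (limma adjusted p = 0.0796). miR-155-5p and miR-155-3p, which are induced in activated lymphocytes and macrophages, lay at the lowest value in all 18 libraries. Most of these immune microRNAs are also made by cells other than leukocytes.

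Markers of other cell types moved with the members. From CHR to PAP, where miR-150-5p and miR-342-3p fell, all 3 tested microRNAs of skeletal muscle and 3 of 5 of fibroblasts and smooth muscle fell, and 4 of 7 epithelial ones rose, against 18.4% of all that fell and 14% that rose. Leaving out the PAP of mice 7 and 10, these were 3 of 3, 3 of 5 and 2 of 7, against 13% and 11.3%. The summed level of the muscle list was 44488 to 64661 in CHR and 0 to 5550 in PAP. In PAP, 3 of its 4 members lay at the lowest value in every sample. Of these, miR-1a-3p lay there in all 6 CHR samples too. The sum in CHR was mostly miR-133a-3p, with a mean log2 level of 15.63. For the fibroblast and smooth muscle list the summed level was 20188 to 34168 in CHR and 2050 to 16840 in PAP. For the epithelial list it was 185294 to 372236 and 223802 to 384382. The epithelial sum was mostly miR-205-5p, with mean log2 levels of 17.87 and 18.22, near the highest value of the table, 18.47. The 4 epithelial microRNAs that rose therefore weighed little in it. The part of these cell types in the falls was not tested.

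From PAP to cuSCC, where miR-142-5p rose, both endothelial microRNAs, the 3 tested of muscle and 2 of 5 of fibroblasts and smooth muscle rose as well, against 9.22% of all. Without the PAP of mice 7 and 10, 4 of all 293 passed (1.37%), of which 1 was endothelial and 1 was miR-142-5p. The summed level of the endothelial list was 185 to 513 in PAP and 612 to 2310 in cuSCC, against 229 to 652 in CHR. For miR-142-5p from CHR to cuSCC, both endothelial microRNAs rose too, miR-126-3p by 1.40 (limma adjusted p = 0.00493), where 20.1% of all rose. Of the other lists, 3 of 7 epithelial microRNAs rose, whereas 1 of 5 of fibroblasts and smooth muscle and 1 of 3 of muscle fell, beside the falls of miR-150-5p and miR-342-3p, where 22.2% of all fell. Without the cuSCC of mouse 10, 2 of 7 epithelial ones and 3 of 5 of fibroblasts and smooth muscle rose, with 1 of the latter lower. The summed level in cuSCC was 36 to 19350 for muscle, 5901 to 46605 for fibroblasts and smooth muscle and 185085 to 382072 for epithelium. In the list of red cell (erythroid) microRNAs, miR-451a rose against CHR in PAP, by 4.78 (limma adjusted p = 0.00106), and in cuSCC, by 3.99 (limma adjusted p = 0.000747). By contrast, miR-486-5p and miR-486-3p fell in cuSCC. The tested microRNAs of this list did not move together, so the list is not read here as a measure of blood in the tissue. The summed erythroid level overlapped between the types, with 106210 to 235715 in CHR, with 106382 to 310311 in PAP, and with 29863 to 240212 in cuSCC. That sum was mostly miR-486-5p, with mean log2 levels of 17.12 (CHR), 17.67 (PAP) and 15.84 (cuSCC). It therefore hardly shows miR-451a, whose log2 level was lower in every CHR sample than in any PAP or cuSCC sample. The highest CHR value of miR-451a was 7.44, against a lowest value of 7.76 for PAP and 8.05 for cuSCC. The part of any of these cell types in the values of the members was not tested.

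Among themselves, miR-150-5p and miR-342-3p were alike over the 18 libraries (r = 0.834), whereas miR-142-5p was not like either (r = -0.101 and 0.0632). miR-223-3p was closer to miR-342-3p (r = 0.728) than to miR-150-5p (r = 0.43) or miR-142-5p (r = 0.391). Without the PAP of mice 7 and 10, miR-223-3p and miR-342-3p stood at r = 0.316 and miR-150-5p and miR-342-3p at r = 0.873 over 16 libraries. The correlations describe libraries from 6 mice that share 3 sample types and their normalization, and they carry no test. With each value taken as its deviation from the mean of its type, miR-150-5p and miR-342-3p stood at r = 0.641 and miR-223-3p and miR-342-3p at r = 0.787, or 0.548 and 0.593 without the PAP of mice 7 and 10.

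The microRNAs outside the members most like each member differed too. For miR-142-5p they were miR-126-3p (r = 0.896), miR-10b-5p (r = 0.874) and miR-22-3p (r = 0.851), and the first 2 of these also led in deviations from the type means (r = 0.769 and 0.746). For miR-150-5p they were miR-1249-3p (r = 0.905), miR-222-3p (r = 0.88) and miR-326-3p (r = 0.817). For miR-342-3p they were miR-574-3p (r = 0.938), miR-1249-3p (r = 0.927) and miR-92b-3p (r = 0.91), so that miR-1249-3p was near both lymphocyte members. For miR-223-3p they were let-7e-3p (r = 0.79), miR-139-5p (r = 0.779) and miR-3057-5p (r = 0.766). When the PAP of mice 7 and 10 were left out, none of these 3 was among the 3 most like miR-223-3p, which were miR-191-5p (r = 0.721), miR-212-5p (r = 0.684) and miR-700-5p (r = 0.639), and miR-1249-3p (r = 0.942) led for miR-342-3p.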

How the data were processed

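Small RNA libraries from CHR, PAP and cuSCC of 6 mice were used. The authors trimmed adapters, removed short reads and reads with homopolymer ends, mapped the rest to miRBase with BLAST (versions not given in the sources used here) and took each microRNA as ppm of usable reads. The deposited values are log2 of these ppm. Their quantile normalization and their lowest value, 10 ppm, were read from the values. The labels name the build mm10, and sequences are from RefSeq on GRCm38.p6. The libraries hold nearly the same values at the same places among abundant entries, and differ at the low end, where the number of detected entries differs. The human samples were not analysed here.

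The 293 microRNAs detected (over the lowest value) in 6 or more of the 18 libraries were tested with limma 3.58.1 in R 4.3.3, 6 samples against 6, two-sided and without a block, with Benjamini-Hochberg adjustment over all 293 at 0.05. The step was tested on simulated data. Intervals are at 95%. Tables and plots used Python 3.11.15, numpy 2.4.6, pandas 2.3.3 and matplotlib 3.10.9. The members, the lists and the rule for the microRNAs most alike (3 per member by Pearson r) were chosen with earlier results of these data known. Differences relative to miR-142-3p had been planned, but it lay at the lowest value in 16 libraries, so miR-142-5p was used as reference.

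Equal numbers mark the same mouse, which pairs the samples. Deviations of same-numbered samples correlated by 0.025 (PAP and CHR), -0.0676 (cuSCC and CHR) and 0.0582 (cuSCC and PAP) on average, and by over 0.1 in 2, 1 and 2 of 6 mice. Alternatives were other detection filters, a fit on all 3 types, mouse as a block, centring, an exact permutation test, undetected values at the lowest detected value of the library, a lowest value of 100 ppm, and leaving out each mouse or the cuSCC of mouse 10. Leaving out the PAP of mice 7 and 10, and the repeats of the fit relative to miR-142-5p, of the medians and of the correlations, were chosen after seeing the data.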

Additional observations from a re-analysis of the deposited data

Results flagged for a closer look

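Among the members, 4 values lay farther from the other 5 samples of their type than Dixon's limit for 6 samples allows, and chance alone marks about 1 in 20 groups. miR-142-3p at 3.82 in the CHR of mouse 8 and at 3.63 in the cuSCC of mouse 9 were marked because the other 5 samples of the type were all at the lowest value. miR-150-5p in the CHR of mouse 9 was 11.67, below the other CHR samples and still above every PAP and cuSCC sample. miR-342-3p in the PAP of mouse 10 was at the lowest value, 3.32, in the library with the fewest detected entries, 163.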

How the results depend on the processing

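Over all alternatives of the fits on level, 174 of the values of the 4 tested members kept their direction and their side of the threshold. Of the rest, 4 lost the threshold, 1 gained it and 5 changed sign. The fits relative to miR-142-5p are not in these counts, and several of their calls changed with the setting, as given above. With mouse as a replicate block the counts of calls were 77 from CHR to PAP, 110 from CHR to cuSCC and 24 from PAP to cuSCC. The pairing changed no call of a member's level and, relative to miR-142-5p, no other call than the 2 given for miR-223-3p and miR-342-3p. miR-342-3p from CHR to PAP came nearest, at a limma adjusted p of 0.048.

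Counts of calls over all microRNAs were less stable. For PAP against CHR, 57 passed with a lowest value of 100 ppm and 55 to 79 with a mouse left out. For cuSCC against CHR these were 80 and 77 to 129, and 131 passed without the cuSCC of mouse 10. From PAP to cuSCC the count was 2 with the looser filter, 21 with the stricter one, 0 with the exact permutation test (75 at an unadjusted p under 0.05, against 83 in limma), 80 with undetected values at the lowest detected value of the library, 2 with a lowest value of 100 ppm, 4 without the PAP of mice 7 and 10, and 1 to 59 with a mouse left out (59 without mouse 10, 1 without mouse 3, 7 or 8).

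Of the members, miR-342-3p from CHR to PAP (-3.66) lost the threshold with the looser filter, and ranged from -4.22 to -2.37 with a mouse left out. miR-142-5p ranged from -1.51 to -0.80 from CHR to PAP and from 1.22 to 1.87 from CHR to cuSCC. From PAP to cuSCC it was 2.53, where the exact permutation test did not pass (exact permutation test, adjusted p = 0.0945, its smallest there). miR-223-3p from CHR to cuSCC ranged from -0.35 to 0.51 and was 0.35 without the cuSCC of mouse 10. From PAP to cuSCC, miR-150-5p ranged from -0.02 to 0.71 and miR-342-3p from -0.15 to 1.25, and the latter was -0.73 without the PAP of mice 7 and 10. The lowest value of either range came without mouse 10. Relative to miR-142-3p, as planned, miR-223-3p ranged from -0.41 to 0.54 from CHR to cuSCC, and from PAP to cuSCC miR-150-5p from -0.09 to 0.65 and miR-342-3p from -0.21 to 1.19. With miR-142-5p as reference the last comparison gave -0.60 for miR-223-3p, -2.24 for miR-150-5p and -1.73 for miR-342-3p. From CHR to PAP, miR-223-3p relative to miR-142-5p was 0.11 with undetected values at the lowest detected value of the library and 0.89 without the PAP of mice 7 and 10. The number that passed relative to miR-142-5p in that comparison, 73, ran from 32 to 129 with a mouse left out. The causes were not tested. The depth of a library, which is unknown, limits what can be said of members at or near the lowest value.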
